A study of Mus musculus with 8 samples.

Results

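The genes of DNA replication and mitosis that mark dividing cells were examined in the embryonic mouse small intestine, as 35 genes chosen by name. Each was read from 1 probe of an Agilent array, the one with the highest mean log2 intensity over the 8 arrays among the probes carrying the gene's name. The 35 genes were part of 36161 gene names on the array, of which 25354 were bright enough to be tested. All 35 were tested, and all were well above background on all 8 arrays, against 90.3% of the genes tested. By role they fell into 10 replication genes, 22 mitotic genes and 3 transcription factors of the cell cycle.

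The tissue was the small intestine at stage E18.5, from 4 controls and 4 mutants. Mutants were Rfx6 fl/fl Ngn3-cre. Rfx6 is a transcription factor gene active in endocrine cells, and a floxed allele (fl) carries loxP sites between which Cre recombinase cuts out DNA. The cre transgene follows the pattern of Ngn3, now named Neurog3, which marks progenitors of endocrine cells, so the deletion was directed at endocrine cells, a small minority of the gut wall. Control replicates 1, 3 and 4 were Rfx6 fl/+ and control replicate 2 was Rfx6 fl/fl. Every animal thus carried at least 1 floxed allele, and because Cre is named for the mutants alone, the presence of Cre and the loss of Rfx6 cannot be told apart. The labels do not say whether the RNAs of a group came from different litters. The p-values set the difference between groups against the spread within groups of these 8 samples, moderated by limma over all genes tested. In RNA from whole tissue, fewer cells of a type and less RNA per cell cannot be told apart.

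A cell enters the cycle when cyclin-dependent kinases release E2F transcription factors from the retinoblastoma proteins, and E2F then drives the genes of DNA synthesis. The mitotic genes are controlled by the DREAM complex in resting cells and by the MYBL2 and FOXM1 factors later in the cycle. Many are controlled through a promoter element called the CHR (cell cycle genes homology region) and through CCAAT boxes bound by NF-Y. In the intestine before birth, epithelial division becomes confined to the regions between the villi, and cells of the mesenchyme, muscle and enteric nervous system divide as well. Endocrine progenitors that express Ngn3 largely leave the cycle.

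Levels are log2 ratios of a probe's processed intensity to the 75th percentile of its array, and differences are mutant minus control on that log2 scale. Levels compare arrays, not genes, because probes differ in brightness for equal amounts of RNA. The 75th percentile lay between 788 and 1027 intensity units on the 8 arrays, of whose probes 59.7% to 69.9% exceeded background clearly. Mutant replicate 1 stood apart from the other 7 arrays: its mean correlation with the others across genes was 0.978, against 0.990 to 0.991 for each of the rest. Counts, medians and the differences it moved most are therefore given with and without it, and the plot of intervals shows both for each member. The Rfx6 probe (chr10:51450116-51450175, mm9) read -3.32, -3.20, -3.48 and -2.93 in control replicates 1 to 4 and -5.52, -3.37, -3.02 and -3.02 in mutant replicates 1 to 4. Whether the probe lies in the deleted part of Rfx6 is not given in the sources used here, so it is no check of the labels. Neurog3 was 0.15 ± 0.076 (SD, n = 4) in controls and 0.91 ± 0.14 in mutants (limma adjusted p 0.055). By comparison, 8 of 8 gut hormone genes were called lower in mutants, against 0.0592% of all genes called in either direction. These hormone genes were chosen with earlier results of these data known. Their differences ran from -8.02 (Gip) to -1.0 (Sct), with a median of -3.70. Their summed linear level, relative to the 75th percentile, was 134 to 145 in controls and 41.6 to 56.3 in mutants. That sum mostly follows Sct, the brightest and least changed of them.

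The promoter letters that separate replication genes from mitotic genes are shown for 5 members. Each line gives the 150 bases just upstream of the RefSeq transcription start, read 5′ to 3′ on the gene's strand, on build GRCm38.p6. Capitals mark CCAAT boxes (CCAAT or, on the other strand, ATTGG), CHR elements (TTTGAA or TTCGAA, with TTCAAA as the reverse of the first) and E2F-type elements. The last were searched as the letters TTGGCGC, as the letters TTCCCGC, as the letters TTCGCGC and as the letters TTGCCGC, on either strand. Where matches on both strands overlap, they run together as 1 stretch of capitals. Cdc20, Ube2c and Top2a are mitotic genes with CHR and CCAAT letters, Mcm6 is a replication gene with E2F and CCAAT letters, and Mki67 holds all 3 kinds.
Cdc20 (chr4:118437344-118437493, minus strand): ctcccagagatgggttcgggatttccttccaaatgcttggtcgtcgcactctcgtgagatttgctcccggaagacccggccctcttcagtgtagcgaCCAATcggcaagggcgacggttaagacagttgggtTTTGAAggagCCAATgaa
Ube2c (chr2:164769779-164769928, plus strand): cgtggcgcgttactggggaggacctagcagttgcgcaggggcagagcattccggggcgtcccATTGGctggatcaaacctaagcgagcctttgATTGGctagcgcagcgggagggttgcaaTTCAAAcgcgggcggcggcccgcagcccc
Top2a (chr11:99024190-99024339, minus strand): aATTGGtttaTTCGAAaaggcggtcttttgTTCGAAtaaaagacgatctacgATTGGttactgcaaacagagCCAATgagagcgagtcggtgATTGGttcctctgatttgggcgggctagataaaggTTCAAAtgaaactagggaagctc
Mcm6 (chr1:128359706-128359855, minus strand): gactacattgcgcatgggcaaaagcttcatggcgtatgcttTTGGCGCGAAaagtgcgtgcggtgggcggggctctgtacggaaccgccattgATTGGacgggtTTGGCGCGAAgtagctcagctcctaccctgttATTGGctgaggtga
Mki67 (chr7:135716380-135716529, minus strand): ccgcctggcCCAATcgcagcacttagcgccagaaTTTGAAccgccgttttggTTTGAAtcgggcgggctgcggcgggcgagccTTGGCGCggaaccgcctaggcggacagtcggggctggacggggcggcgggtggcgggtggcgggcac

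In Cdc20, a CHR and a CCAAT box lie side by side close to the start, with a further CCAAT box upstream. Top2a carries its CHR and CCAAT letters several times over. In Mcm6, 2 stretches of E2F letters read on both strands are interleaved with 2 CCAAT boxes. These matches describe letters only, and no binding was measured.

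RefSeq promoters (250 bases before to 50 after the start) were found for 30 of the 35 members, 31 promoters in all because Mcm7 has more than 1. No entry was found for Aurkb, Ccna2, Foxm1, Kif20a and Mcm4. CHR letters were present in 15 of 19 mitotic promoters (78.9%), against 2 of 10 replication promoters (20%) and 19.2% of all 32851 promoters of the same length. E2F-type letters showed the opposite division: 7 of 10 replication promoters (70%), 2 of 19 mitotic promoters (10.5%) and 9.57% of all promoters. At least 1 CCAAT box was found in 16 of 19 mitotic promoters (84.2%) and 9 of 10 replication promoters (90%), against 37.4% of all promoters. A CHR together with a CCAAT box occurred in 14 of 19 mitotic promoters (73.7%) and in 7.52% of all promoters. Neither E2f1 nor Mybl2, the transcription factor members with an entry, held any of the 3 kinds of letters in its window.

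**Figure D1:**
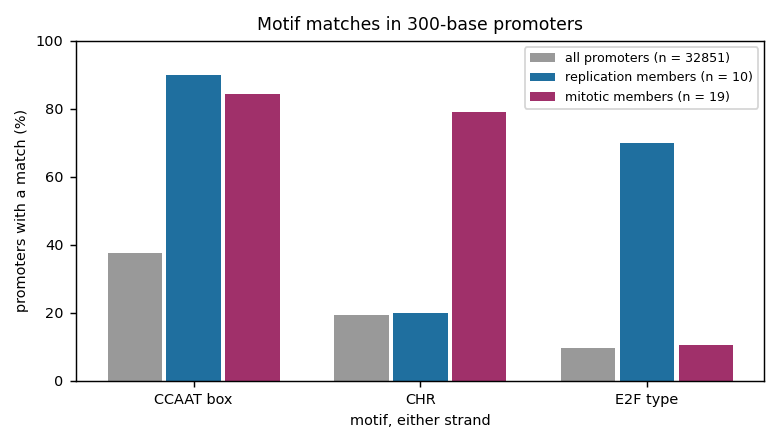
Share of promoters, in percent, that hold a CCAAT box, a CHR or an E2F-type match on either strand within 300 bases, for all 32851 promoters (grey), 10 promoters of replication members (blue) and 19 of mitotic members (purple). CHR letters are at 78.9% of the mitotic promoters and E2F-type letters at 70% of the replication promoters, each near the share of all promoters in the other class.

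Cell cycle genes did not differ detectably between control and mutant intestine. None of the 35 was called at a limma adjusted p under 0.05, against 15 of the 25354 genes tested (0.0592%), and none had an unadjusted p under 0.05, against 5.33% of all genes. The adjusted p of the members ran from 0.821 to 0.996, and the smallest unadjusted p was 0.115, for Ube2c. For every one of the 35 the control and mutant arrays overlapped, and the groups did not overlap for 4.67% of all genes. For a list of 35 genes these counts were near the shares over all genes. Differences were below 0 for 20 members and above 0 for 15, with a median of -0.014, against a median of 0.030 and 42.9% below 0 over all genes. Without mutant replicate 1, 18 were below 0 and 17 above, with a median of -0.023 against 0.0017 over all genes (49.5% below 0), and still none was called or had an unadjusted p under 0.05, which 6.64% of all genes then had.

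Intervals bound the difference of each gene, taken singly, in RNA of the whole tissue. They do not bound a change confined to endocrine cells, a small minority of the gut wall. The limma 95% interval lay within 1.5-fold in either direction for 26 of the 35 members, against 69% of all genes. With mutant replicate 1 left out it did so for 34 of 35, against 79.5% of all genes, Aurkb being the exception. The differences ranged from -0.56 (Cenpe) to 0.23 (Aurkb) with all arrays, and from -0.19 (Mcm3) to 0.27 (Aurkb) without mutant replicate 1.

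**Figure D2:**
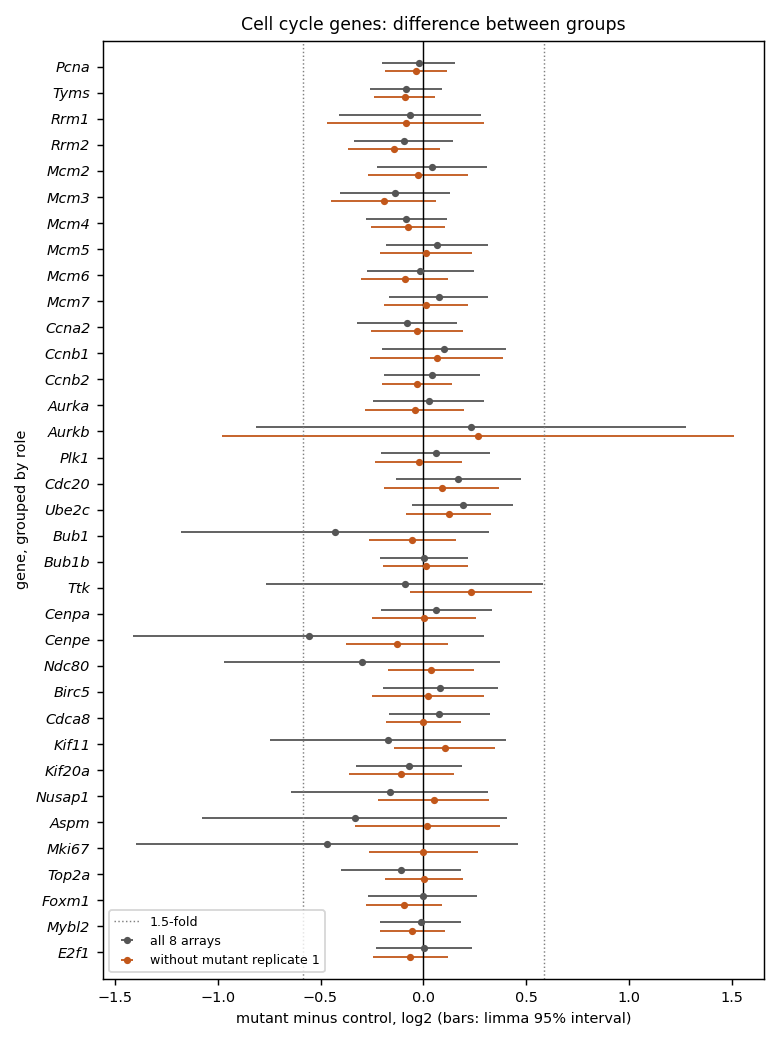
Difference between groups for each member, mutant minus control on the log2 scale (horizontal axis), with limma 95% intervals as bars, for all 8 arrays (grey) and without mutant replicate 1 (orange). Dotted lines mark 1.5-fold. Every interval crosses 0; the widest grey bars to the left are Cenpe, Mki67, Bub1 and Aspm, whose orange points lie close to 0, and Aurkb is wide in both.

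Among the genes of DNA synthesis and nucleotide supply, no member was called and all 4 differences were slightly below 0 (median -0.076, and -0.089 without mutant replicate 1). Pcna, the sliding clamp of the replicative polymerases, measured 4.63, 4.53, 4.55 and 4.57 in control replicates 1 to 4 and 4.59, 4.49, 4.53 and 4.59 in the mutants. The groups covered nearly the same values, and the difference of -0.022 (SE 0.078) had an interval of -0.20 to 0.16. Tyms, which makes thymidylate, was -1.95 ± 0.041 (SD, n = 4, as for all means of a group below) in controls and -2.04 ± 0.037 in mutants. Its lowest control and highest mutant arrays met at -2.0. Rrm1 and Rrm2 are the subunits of ribonucleotide reductase, which makes deoxyribonucleotides. Rrm1 was 2.40 ± 0.20 in controls and 2.33 ± 0.25 in mutants. Rrm2 was 2.94 ± 0.11 in controls and 2.85 ± 0.15 in mutants. The 4 differences ran from -0.14 to -0.035 without mutant replicate 1.

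The 6 Mcm2 to Mcm7 genes encode the ring of the replicative helicase, which is loaded at origins before DNA synthesis. Their differences were centred near 0 (median 0.013, and -0.049 without mutant replicate 1), 3 below and 3 above, and their median also turned below 0 with quantile normalisation, normexp background correction, the deposited table and array weights, so its sign was not settled. Mcm3 had the lowest, with 2.87, 3.04, 3.13 and 3.30 in control replicates 1 to 4 and 3.12, 2.84, 2.85 and 2.99 in the mutants. Mutant replicates 1 and 4 lay within the range of the controls, and mutant replicates 2 and 3 just under the lowest control. The difference was -0.14 (SE 0.12), and -0.19 (SE 0.11) without mutant replicate 1. Mcm2 was 1.73 ± 0.17 in controls and 1.77 ± 0.14 in mutants. Mcm4 was 3.35 ± 0.076 and 3.26 ± 0.076 in the same order. Mcm5 was 2.24 ± 0.13 in controls and 2.31 ± 0.14 in mutants. The remaining pair showed equally small shifts: Mcm6 was 5.21 ± 0.058 in controls and 5.19 ± 0.20 in mutants. Mcm7 was 3.29 ± 0.11 in controls and 3.37 ± 0.15 in mutants. The 6 differences ran from -0.19 to 0.013 without mutant replicate 1.

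The cyclins, mitotic kinases and partners of the anaphase-promoting complex had 7 of 8 differences above 0 (median 0.079), a balance that became 4 and 4 without mutant replicate 1 (median 0.021), and their median turned below 0 with array weights and on slide row 2 alone. None was called. Ube2c, the ubiquitin-conjugating enzyme of the anaphase-promoting complex, measured 2.63, 2.82, 2.80 and 2.82 in control replicates 1 to 4 and 3.16, 2.92, 2.75 and 3.00 in the mutants. Mutant replicates 1, 2 and 4 lay above all controls and mutant replicate 3 within them. The difference was 0.19 (SE 0.11, limma adjusted p 0.821), and 0.12 (SE 0.088) without mutant replicate 1. Cdc20, an activator of the same complex, was 3.20 ± 0.13 in controls and 3.37 ± 0.23 in mutants. Its difference was 0.17 (SE 0.13), and 0.090 (SE 0.12) without mutant replicate 1.

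Ccna2 encodes cyclin A2, which acts in DNA synthesis and into mitosis, and Ccnb1 and Ccnb2 the B-type cyclins that start mitosis with CDK1. Ccna2 was 2.45 ± 0.12 in controls and 2.37 ± 0.14 in mutants. Ccnb1 was 2.02 ± 0.12 in controls and 2.12 ± 0.24 in mutants. Ccnb2 was 3.34 ± 0.049 in controls and 3.38 ± 0.17 in mutants. The kinases behaved alike in that both groups overlapped. Plk1, the polo-like kinase of mitotic entry and exit, was 3.18 ± 0.082 in controls and 3.24 ± 0.20 in mutants. Aurka, the spindle pole Aurora kinase, was 2.30 ± 0.096 in controls and 2.33 ± 0.20 in mutants. Without mutant replicate 1 the differences of the 8 genes of this role ran from -0.043 (Aurka) to 0.27 (Aurkb).

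Aurkb, the Aurora kinase of the chromosomal passenger complex, was the most variable member outside mutant replicate 1. Its probe (chr11:68865105-68865164, mm9) measured -4.26, -3.09, -4.32 and -4.28 in control replicates 1 to 4 and -3.86, -2.45, -4.33 and -4.38 in the mutants. Control replicate 2 and mutant replicate 2 were high and the other 6 arrays lay together, so the spread cut across the groups. The difference of 0.23 (SE 0.46) had an interval of -0.81 to 1.28. This probe had the lowest GC content among the members, 20% of its bases, and whether that bears on its spread was not tested.

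The 6 genes of the spindle checkpoint and kinetochore included Cenpe and Bub1, which had 2 of the 3 largest differences of all members, beside Mki67. The median of the 6 was -0.20, and 0.007 without mutant replicate 1. Without that array Cenpe and Bub1 came closer to 0, and Ndc80 and Ttk moved to the other side of it. None was called. Cenpe, a kinetochore motor (chr3:134936387-134936446, mm9), measured 2.92, 2.76, 2.78 and 2.69 in control replicates 1 to 4 and 0.94, 2.62, 2.49 and 2.87 in the mutants. Its difference was -0.56 (SE 0.37, limma adjusted p 0.821), and -0.13 (SE 0.11) without mutant replicate 1. Mutant replicate 1 alone lay far below, and mutant replicate 4 lay among the controls.

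Bub1, a checkpoint kinase (chr2:127626988-127627047, mm9), measured -0.43, -0.32, -0.42 and -0.26 in control replicates 1 to 4 and -1.91, -0.46, -0.52 and -0.24 in the mutants. The difference was -0.43 (SE 0.33), and -0.053 (SE 0.090) without mutant replicate 1. Ndc80, the outer kinetochore protein that holds microtubules (chr17:71860793-71861755, mm9), measured -0.68, -0.68, -0.81 and -0.65 in controls and -2.0, -0.59, -0.84 and -0.58 in mutants. In both genes the other 3 mutants stayed within about the range of the controls, and the Ndc80 difference went from -0.30 (SE 0.29) to 0.035 (SE 0.089) without mutant replicate 1.

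The checkpoint kinase gene Ttk showed the same split: -3.29, -3.41, -3.0 and -3.14 in control replicates 1 to 4 and -4.27, -3.02, -3.14 and -2.78 in the mutants. Its difference was -0.092 (SE 0.30), and 0.23 (SE 0.13, limma adjusted p 0.808) without mutant replicate 1. Bub1b and Cenpa did not share it. Bub1b, which encodes the checkpoint protein BUBR1, was 0.36 ± 0.042 in controls and 0.37 ± 0.13 in mutants. Cenpa, the histone H3 variant of centromeres, was 2.00 ± 0.084 in controls and 2.06 ± 0.21 in mutants.

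Among chromosomal passengers, motors and spindle proteins the median difference was -0.12, and 0.021 without mutant replicate 1. Aspm, a spindle pole protein known from microcephaly (chr1:141390377-141390436, mm9), measured 0.66, 0.79, 0.67 and 0.69 in control replicates 1 to 4 and -0.69, 0.71, 0.38 and 1.07 in the mutants. The 4 mutants straddled the controls on both sides. The difference was -0.33 (SE 0.33), and 0.019 (SE 0.15) without mutant replicate 1. Kif11, the motor that pushes spindle poles apart, measured -0.77, -0.75, -1.0 and -0.66 in controls and -1.79, -0.70, -0.82 and -0.56 in mutants. Nusap1, a protein that bundles spindle microtubules, measured 1.20, 1.45, 1.33 and 1.41 in controls and 0.54, 1.46, 1.16 and 1.56 in mutants. Both were lowest on mutant replicate 1, and Nusap1 lay just below the controls on mutant replicate 3 too. The Kif11 difference was -0.17 (SE 0.25), and 0.10 (SE 0.10) without mutant replicate 1. The Nusap1 difference was -0.16 (SE 0.21), and 0.049 (SE 0.12) without it.

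The passenger genes and Kif20a were not low on mutant replicate 1. Birc5 (survivin) was 4.63 ± 0.0080 in controls, the tightest group of any member, and ranged from 4.38 to 4.89 in mutants. Cdca8 (borealin) was 3.35 ± 0.069 in controls and 3.43 ± 0.18 in mutants. Kif20a, a motor of cytokinesis, was 1.43 ± 0.13 in controls and 1.36 ± 0.16 in mutants.

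Mki67 encodes the Ki-67 protein, which coats mitotic chromosomes and serves as the usual marker of cycling cells. Its probe (chr7:142881591-142881650, mm9) measured 4.00, 4.19, 4.10 and 4.14 in control replicates 1 to 4 and 2.23, 4.02, 3.95 and 4.37 in the mutants. Mutant replicate 1 lay far below the lowest control, mutant replicates 2 and 3 lay at or just below the lower controls, and mutant replicate 4 above all of them. With all arrays the difference was -0.47 (SE 0.41, limma adjusted p 0.821). Without mutant replicate 1 it was 0.00056 (SE 0.11), with an interval of -0.26 to 0.27. Top2a, the topoisomerase that untangles sister chromatids, measured 1.85, 1.90, 1.87 and 1.80 in controls and 1.41, 1.81, 1.76 and 2.01 in mutants. The mutants stood in the same order as for Mki67, over a smaller range, and the controls did not. The difference was -0.11 (SE 0.13), and 0.0040 (SE 0.081) without mutant replicate 1.

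The 3 transcription factors of the cycle had differences of -0.013 to 0.0037. Foxm1, which drives mitotic genes, was 0.26 ± 0.048 in controls and 0.26 ± 0.21 in mutants. Mybl2 (B-Myb), its partner at those genes, was 1.55 ± 0.039 in controls and 1.53 ± 0.10 in mutants. E2f1, which drives entry into DNA synthesis, was 0.46 ± 0.041 in controls and 0.46 ± 0.17 in mutants. For all 3 the means agreed to within the spread, with mutant replicate 1 above the control mean. Without that array the 3 differences ran from -0.096 to -0.054.

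**Figure D3:**
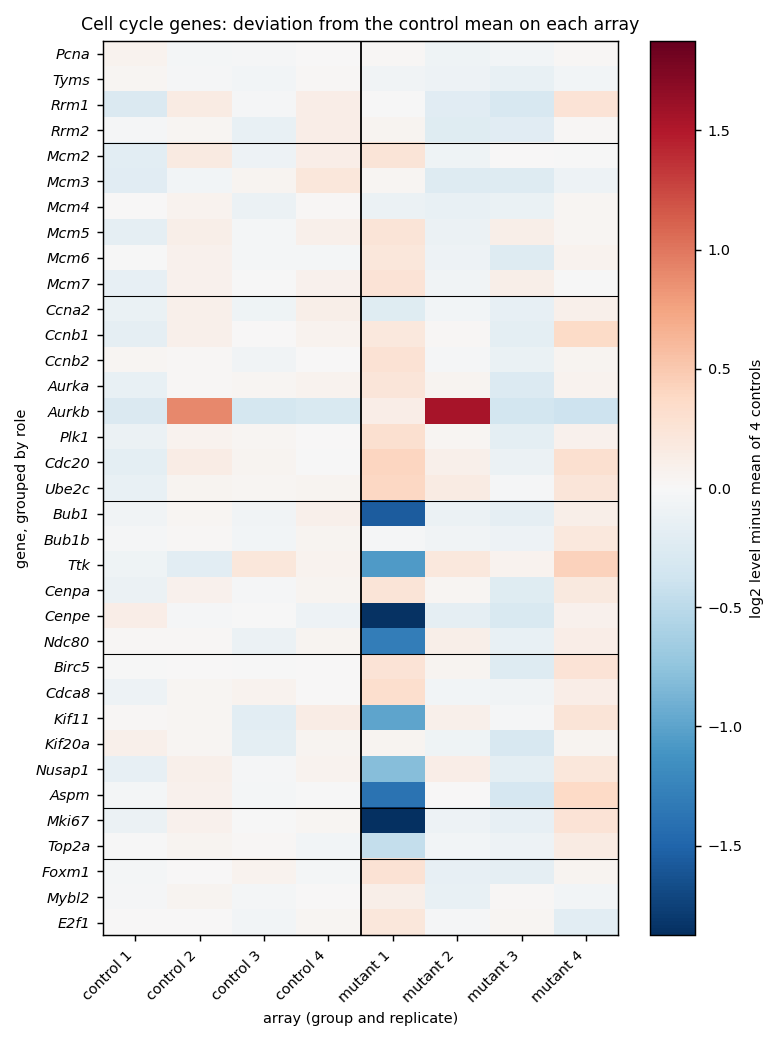
Deviation of each member's log2 level from the mean of the 4 controls (colour scale) on each of the 8 arrays, with genes in rows grouped by role and controls to the left of the black line. The dark blue cells are all on mutant replicate 1 and belong to mitotic genes such as Cenpe, Mki67, Bub1, Aspm and Ndc80; Aurkb is red on control replicate 2 and mutant replicate 2.

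The members thus divided on mutant replicate 1. Relative to the median of the other mutants, 10 members were lower on that array and 25 were higher. Most genes were higher there, with a median of 0.19 over all genes. Mki67 was the farthest below, at -1.78, followed by Cenpe (-1.68), Bub1 (-1.45), Ndc80 (-1.41), Aspm (-1.40), Ttk (-1.25) and Kif11 (-1.09). These 7 lay below that median by more than 2-fold, against 8.21% of all genes, and all 7 were among the 22 mitotic members. Nusap1 (-0.92) and Top2a (-0.40) followed. None of the 10 replication members was more than 2-fold lower on that array, a count near the share of all genes. Each of the 10 was above the median of the other mutants there, as most genes were. No member was more than 2-fold higher, and the highest value was 0.47, for Aurkb.

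The division also ran within roles. On mutant replicate 1 the checkpoint kinase genes Bub1 and Ttk were low while Bub1b was 0.044 above the median of the other mutants, and Kif11 was low while Kif20a was 0.13 above it. The median of the members on that array, 0.18, was close to that of all genes, 0.19. The probes of the 9 members that lay more than 0.25 below had a GC content of 35% to 45% (median 41.7%), and those of the other 26 had 20% to 53.3% (median 42.5%). Mutant replicate 1 was the lowest of the 8 arrays for 10 members and the highest for 15, against 21.3% and 45.6% of all genes. What set that array apart was not tested.

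The mitotic members also kept a common order among the other 3 mutants, a pattern noticed in these values. For 21 of the 22, mutant replicate 3 was the lowest and mutant replicate 4 the highest of mutant replicates 2 to 4, Aurkb being the exception. The same order held for 3 of 10 replication members and for 23.6% of all genes. In the wider lists it was less regular: 10 of 16 genes of motors and spindle, 6 of 12 of condensin and cohesin and 5 of 12 of the kinetochore had it. Marker lists differed in it. It held for 5 of 7 stem cell, 5 of 8 epithelial, 4 of 5 erythroid and 4 of 8 mesenchymal markers. Only 1 of 7 enteric neuron and glia, 1 of 6 immune and 1 of 5 endothelial markers had it. It held for 0 of 7 enterocyte, 0 of 6 smooth muscle, 0 of 8 hormone and 0 of 5 acinar markers. The median deviation of the mitotic members from the control mean was 0.026 on mutant replicate 2, -0.16 on mutant replicate 3 and 0.17 on mutant replicate 4. On the control arrays it was -0.088, 0.044, -0.012 and 0.048 for replicates 1 to 4. The mutants that differed most from each other thus lay on opposite sides of the controls, and their mean lay near them.

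Replication members were arranged differently. Their median deviation from the control mean was 0.038, -0.11, -0.13 and 0.019 on mutant replicates 1 to 4, and -0.088, 0.078, -0.042 and 0.088 on control replicates 1 to 4. All 10 were below the control mean on mutant replicate 2. The size of these deviations in the mutants was of the same order as in the controls.

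**Figure D4:**
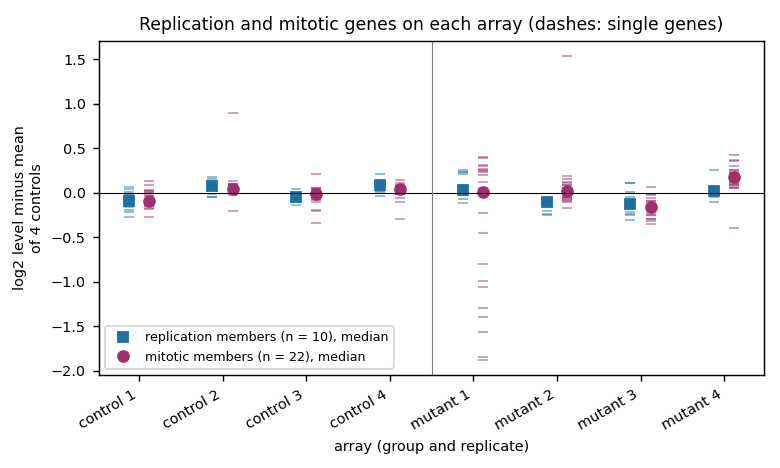
Deviation from the control mean (log2, vertical axis) on each array, as the median over the 10 replication members (blue squares) and the 22 mitotic members (purple circles), with dashes for single genes. On mutant replicate 1 the mitotic dashes reach down to -1.88 while their median stays at 0.015; mutant replicates 3 and 4 lie at -0.16 and 0.17 for the mitotic median.

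A further view came from genes with more than 1 probe. The 35 members had 45 probes, and 8 members had several. Both Mki67 probes were low on mutant replicate 1: the dimmer measured 3.98, 4.14, 3.97 and 3.94 in control replicates 1 to 4 and 2.10, 3.89, 3.78 and 4.25 in the mutants, which placed mutant replicate 1 at -1.79 from the median of the other mutants. The 2 Ube2c probes gave differences of 0.19 each. The 3 Birc5 probes gave 0.082, 0.16 and 0.15. The Mcm3 probes disagreed in sign, with -0.14 for the brighter probe and 0.22 for the other. On that other probe control replicates 3 and 4 measured 2.51 and 2.60, against 2.99 and 3.11 for control replicates 1 and 2. The controls thus fell into pairs that matched the rows of the slide (replicates 1 and 2 in row 1, replicates 3 and 4 in row 2). The mutants, at 3.22, 2.89, 2.93 and 3.04 in replicates 1 to 4, did not divide by row. The Foxm1 probes also differed in sign, with 0.13 for the dimmer and -0.0029 for the brighter.

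The rest of the cell cycle machinery was followed in 109 further genes, grouped as origin licensing, replication fork, cyclins and their kinases, kinase inhibitors, E2F and RB factors, kinetochore, motors and spindle, and condensin and cohesin. Of these, 108 were tested (Ccne2 was too dim) and none was called in either direction, beside 0.0592% of all genes. Differences were below 0 for 55 and above 0 for 53, with a median of -0.0076. Without mutant replicate 1 they were below 0 for 67 and above for 41, with a median of -0.022. An unadjusted p under 0.05 was reached by 2 of them, Rbl2 and Mycn, against 5.33% of all genes. Without mutant replicate 1 it was reached by 3, Cdkn1a, Rbl2 and E2f5, against 6.64% of all genes. Groups did not overlap for 3 (Rbl2, Cdc25a and E2f5), against 4.67% of all genes.

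Rbl2 encodes p130, the retinoblastoma relative of the DREAM complex in resting cells. It measured -1.93, -1.86, -1.82 and -1.89 in control replicates 1 to 4 and -1.21, -1.65, -1.72 and -1.70 in the mutants, all 4 mutants being above all controls. The difference was 0.31 (SE 0.13, limma adjusted p 0.821), and 0.18 (SE 0.063, limma adjusted p 0.682) without mutant replicate 1. Mycn, a MYC family gene of progenitors, differed by 0.29 (SE 0.12, limma adjusted p 0.821), with overlapping groups, and by 0.21 (unadjusted p 0.074) without mutant replicate 1. Cdc25a, a phosphatase that activates cyclin-dependent kinases, differed by 0.22 (SE 0.12), and by 0.12 (SE 0.071) without mutant replicate 1. E2f5, an E2F that acts with the retinoblastoma relatives, differed by 0.19 (SE 0.086), and by 0.19 (SE 0.078) without it.

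On mutant replicate 1, 13 of the 108 lay lower than the median of mutant replicates 2 to 4 by more than 2-fold, against 8.21% of all genes. They included Ncapg (-3.12), Smc4 (-2.56) and Smc2 (-1.94) of condensin, which compacts mitotic chromosomes. Kif18a (-3.0) and Kif15 (-1.95) are mitotic motors. Casc5 (-2.54), Cenpk (-1.92) and Cenpf (-1.67) belong to the kinetochore. Esco2 (-2.24), Pak3 (-1.55), Pola1 (-1.26) and Hmmr (-1.07) were also among them. Pola1 encodes a polymerase subunit of DNA synthesis, so low values on that array were not limited to mitotic genes. The mitotic genes Tpx2, Prc1 and Kif2c were 0.13, 0.067 and 0.20 above the median of the other mutants on it.

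Of the inhibitors that take cells out of the cycle, Cdkn1a, which encodes p21, measured 0.86, 1.00, 1.08 and 0.89 in control replicates 1 to 4 and 0.98, 0.71, 0.66 and 0.66 in the mutants. Mutant replicates 2, 3 and 4 lay below all controls and mutant replicate 1 among them. The difference was -0.21 (SE 0.11, limma adjusted p 0.821), and -0.28 (SE 0.077) without mutant replicate 1, where the unadjusted p was 0.0071 and the limma adjusted p 0.516. Cdkn1b, which encodes p27, differed by 0.053 (SE 0.10), and by 0.052 without mutant replicate 1. Cdkn1c, which encodes p57, measured 7.02, 7.14, 6.99 and 6.99 in controls and 7.64, 7.26, 7.07 and 6.98 in mutants. Its difference of 0.20 (SE 0.15) became 0.071 (SE 0.087) without mutant replicate 1, which was the highest array.

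The cell types that divide were compared through marker lists, as summed linear levels relative to the 75th percentile. Such a sum mostly follows the brightest probes of its list. Stem cell markers (7 genes) summed to 16.8 to 18.7 in controls and 16 to 22.8 in mutants. Their brightest probe was Smoc2, with a control mean of 3.63, against -0.10 for Lgr5 and -1.10 for Olfm4. Of the 7 stem cell differences, 3 were below 0 with all arrays and 6 without mutant replicate 1. Epithelial markers (8 genes) summed to 432 to 470 in controls and 419 to 565 in mutants. Mesenchymal markers (8 genes) summed to 208 to 273 in controls and 231 to 281 in mutants. Smooth muscle markers (6 genes) summed to 240 to 364 in controls and 335 to 459 in mutants. In each of these 4 lists mutant replicate 1 gave the highest sum, and no gene of them was called. That array also gave the highest sum for enterocyte markers (1817, against at most 1657 in controls), immune markers (77.3 against 67.0) and endothelial markers (12.2 against 8.65). It did not for the enteric neuron and glia, erythroid, hormone and acinar lists. Over all genes it was the highest of the 8 arrays for 45.6%. Acinar markers of the pancreas were low in controls, 0.952 to 2.20 in sum, and higher in mutants, 2.82 to 14.1. Of the 7 listed, 5 were tested, and all 5 had an unadjusted p under 0.05 with differences of 1.02 to 6.09. None was called: the largest were Amy2a5 at 6.09 (limma adjusted p 0.150) and Cela2a at 3.95 (limma adjusted p 0.114). The part of differing tissue make-up in the cell cycle values was not tested.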

How the data were processed

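Per the labels' protocols, TRI-reagent was used to extract total RNA, of which 100 ng was amplified and labelled with Cy3. Per the file headers, Feature Extraction 10.10.1.1 was used by the authors, who deposited spot intensity values, background-corrected within each array, with probe positions on mm9. A further table deposited by the authors holds linear intensity values, with no processing stated in the labels. It was read as quantile-normalised from its values and used as an alternative.

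All 8 arrays lay on 1 slide. Control spots and outlier spots were dropped. Log2 intensity was centred on the 75th percentile of each array, spots of a probe were averaged, and the brightest probe of a gene name was kept. A gene was tested when well above background, in at least 50% of its spots, on at least 4 of 8 arrays. Group was the only term of the fit (limma 3.58.1, R 4.3.3, functions lmFit and eBayes). Tests were two-sided with Benjamini-Hochberg adjustment over 25354 genes and a threshold of 0.05. The fit was tested on simulated data. The number of arrays limits the precision.

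The members and the lists of other genes and markers were chosen with earlier results of these data known. All 35 members were named, with per-array values for those farthest from 0, for Mki67, for Pcna and for those low on mutant replicate 1, the latter chosen after their values were seen. Rbl2, Mycn and the inhibitors Cdkn1a, Cdkn1b and Cdkn1c were named by rule, and Cdc25a, E2f5 and the genes low or high on mutant replicate 1 after their values were seen. Promoters came from RefSeq (GRCm38.p6), whose coordinates were not mixed with mm9. No exon annotation of mm9 was used here. The descriptions of mutant replicates 2 to 4 name other Rfx genes while titles and source names say Rfx6, and the titles were followed. In all, 21 other ways of processing were tried, 2 of them (each slide row alone) chosen after seeing the data.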

Additional observations from a re-analysis of the deposited data

Results flagged for a closer look

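Single arrays far from the rest of their group were sought in 84 groups of 4 arrays with Dixon's criterion. It flags about 1 group in 20 by chance, or 4.2 here, where groups are independent and not chosen by their values. Some of these genes were named by their values, and genes deviated together on mutant replicate 1, so 4.2 sets no measure here. The criterion flagged 7 groups. Mutant replicate 1 was the array in 4 of them: Bub1 at -1.91 (the other mutants at -0.518 to -0.243), the Rfx6 probe at -5.52 (-3.37 to -3.02), Rbl2 at -1.21 (-1.72 to -1.65) and Cdkn1a at 0.978 (0.658 to 0.712). The Bub1 and Rfx6 values were low and those of Rbl2 and Cdkn1a high. The other 3 were Aurkb on control replicate 2 at -3.09 (-4.32 to -4.26), Ube2c on control replicate 1 at 2.63 (2.80 to 2.82) and Mcm4 on mutant replicate 4 at 3.38 (3.21 to 3.24). Mki67 and Cenpe, low on mutant replicate 1 in the report, were not among them because the other 3 mutants were themselves spread.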

How the results depend on the processing

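No member and no gene of the wider cell cycle lists was called under any of the 21 alternatives, and the smallest adjusted p of a member over them was 0.487, with limma's array weights. The count of genes called over the whole array, 15 in the report, was 41 with array weights, 23 with trended and robust variances, 5 on slide row 1 alone, 6 on slide row 2 alone, and 10 to 22 when single replicates were left out. The slide rows were analysed alone as a choice made after seeing the data. Replicate numbers did not pair the samples: deviations of same-numbered arrays correlated at -0.093, 0.056, -0.071 and 0.088. With the replicate block 7 genes were called, and no member. The median difference of the members ran from -0.062 to 0.0075, with 17 to 27 of 35 below 0, so its sign is not settled. Of the members, 11 never changed sign and 12 changed it without mutant replicate 1. An unadjusted p under 0.05 was reached by Ube2c with normexp background correction, with the deposited table and without mutant replicate 3, and by Mcm3 and Rrm2 with array weights. The difference of Neurog3 passed the threshold under 6 alternatives (adjusted p 0.0132 to 0.0475). With all arrays the 95% interval reached past 1.5-fold for 9 of the 35 members, and without mutant replicate 1 for Aurkb alone. Levels of dim probes such as Aurkb and Ttk rest on low signal.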
